A study of Ovis aries with 12 samples.

Results

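CCNB1, PCNA and BAX are 3 genes that stand for cell division and cell death, out of 855 genes named on an Agilent sheep array. Their RNA was read in the biceps femoris of late-gestation sheep fetuses. The array carries 5 probes for them among 15008 non-control probes. PCNA and BAX each have 2 probes that bear the gene's name, while no probe bears the name CCNB1 or a RefSeq accession of sheep CCNB1. The remaining probe was taken as CCNB1 because the array describes its transcript assembly as bovine G2/mitotic-specific cyclin-B1. All 5 passed the filter on dim signals, which asked for a signal well above background on 6 or more of the 12 arrays, as did 10734 probes in all.

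The samples fall into 2 groups of 6 arrays. In the cortisol group, ewes with a single fetus received cortisol (Solu-Cortef) at 1 mg/kg/day from about day 115 of pregnancy until necropsy. In the control group they received vehicle over the same period. The labels give 7 ewes per arm against 6 arrays per group, and they do not say which ewes the arrays come from. Necropsy followed soon after labour began, at days 139 to 144, and the sample labels give day 140. The treatment text of the labels speaks of left ventricle of the heart, whereas the titles and tissue fields name the biceps femoris. MYOD1, a regulator specific to skeletal muscle and the only one of 12 such markers on the array by name, was well above background on all 12 arrays, at 1.63 to 2.27 on control and -0.35 to 2.59 on cortisol arrays (log2 relative to the array's 75th percentile). None of the 10 heart muscle markers looked for is on the array by name. The labels number the replicates without saying how each was taken, so p-values measure the spread between these samples.

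Cyclin B1 binds the kinase CDK1, and the pair drives a cell from G2 into mitosis, so its RNA is high in dividing cells and falls once division is over. PCNA is the ring-shaped clamp that holds DNA polymerase on the template in S phase and also serves DNA repair. BAX is a pore-forming member of the BCL2 family that opens the outer mitochondrial membrane and so releases cytochrome c, and it is restrained by BCL2, BCL2L1 and MCL1. Muscle fibres have left the cell cycle, so in muscle near term the dividing nuclei are those of satellite cells and of connective, vascular and blood cells.

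The probe sequences show what was measured and how far the probes of a gene are independent. Each probe is 60 bases long, and they are given 5′ to 3′ as in the scanner files, which map none of them to a genome. For PCNA and BAX, capitals mark the bases that both probes of the gene share.
PCNA probe 1: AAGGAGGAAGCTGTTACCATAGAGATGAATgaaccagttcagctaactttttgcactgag
PCNA probe 2: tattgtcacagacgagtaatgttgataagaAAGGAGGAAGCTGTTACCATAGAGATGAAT
BAX probe 1: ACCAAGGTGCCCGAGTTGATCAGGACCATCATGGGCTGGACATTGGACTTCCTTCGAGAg
BAX probe 2: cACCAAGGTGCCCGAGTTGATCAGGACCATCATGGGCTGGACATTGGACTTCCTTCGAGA
The PCNA probes start at bases 801 and 771 of the same expressed sequence tag and share 30 bases. The BAX probes start at bases 294 and 293 of a partial coding sequence and share 59 bases. They are therefore repeat readings of the same stretch of BAX RNA rather than separate evidence. Of CCNB1, bases 22 to 51 of the probe are shown, with the hexamer AATAAA, the usual signal for polyadenylation, in capitals.
CCNB1: atactatctgcaAATAAAattggcaccatg
As printed, the hexamer occurs in 5.63% of all 15008 probes, and on either strand in 9.14%. GC content was 36.7% for the CCNB1 probe, 41.7% and 36.7% for PCNA probes 1 and 2, and 55.0% for both BAX probes. No probe of another gene shares a run of 20 bases with any of the 5, on either strand.

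Signals below are log2 units relative to the 75th percentile of the non-control probes on the same array. Per array the percentile was 187 to 447 units of intensity, and 66.4% to 76.0% of probes were well above background. Across the whole array, limma called 0 of 10734 probes (0% called) at a Benjamini-Hochberg adjusted threshold of 0.05, with 0.693 as the lowest adjusted value. At an unadjusted p under 0.05 there were 230 higher probes (2.14%) and 502 lower probes (4.68%), 6.82% in all. The median log2 fold change over all tested probes was -0.02. None of the 5 probes passed the adjusted threshold, so no change in CCNB1, PCNA or BAX was called, and their values are given as measured. Both BAX probes were among those with an unadjusted p under 0.05, and the other 3 probes were not.

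BAX was the member whose groups separated most clearly, with higher mean readings after cortisol on both probes, 1.34-fold and 1.33-fold, that did not pass the adjusted threshold. For BAX probe 1 the lowest, median and highest control arrays were at -3.03, -2.88 and -2.72, and the cortisol arrays were at -2.70, -2.47 and -2.24. All 6 cortisol arrays lay above every control array, although the lowest of them exceeded the highest control only narrowly. Such a separation was seen for 10 of 10734 probes (0.0932%) in the higher direction and for 34 (0.317%) in the lower direction. The share in the higher direction is no larger than random splits of the arrays into groups of 6 would give. The separation alone therefore does not set BAX probe 1 apart from chance. The group means were -2.88 ± 0.11 (SD, n = 6) in controls and -2.46 ± 0.18 after cortisol. The log2 fold change was 0.42 (SE 0.13, 95% interval 0.15 to 0.69), or 1.11-fold to 1.62-fold on the linear scale. It had an unadjusted p of 0.00518 and an adjusted p of 0.693 in limma. The two-sided exact permutation p over the 12 arrays was 0.00216, the smallest that 6 against 6 arrays can give.

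BAX probe 2 read the same stretch with more spread. Its control arrays ran from -3.16 through a median of -3.00 to -2.77, and its cortisol arrays from -2.89 through -2.60 to -2.23. Here 5 of the 6 cortisol arrays lay above every control, and cortisol array 3 fell among the controls. Of those above, cortisol arrays 2 and 5, at -2.74 and -2.76, exceeded the highest control only narrowly. The means were -2.98 ± 0.15 and -2.56 ± 0.27 (SD, n = 6). The log2 fold change was 0.41 (SE 0.15, 95% interval 0.09 to 0.74), with an adjusted p of 0.693 in limma and a two-sided exact permutation p of 0.0108.

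The BAX readings are dim, at 25.2 to 52.2 units of processed intensity in controls and 40.6 to 94.7 after cortisol on probe 1, and the size of the difference depends on how background was removed. Both probes were well above background on all 12 arrays. In the authors' deposited log2 table the log2 fold changes were 0.38 and 0.33. With normexp background correction and an offset of 50 they were 0.07 for probe 1 and 0.13 for probe 2, and with no offset, an alternative added after seeing the data, 0.24 and 0.31. The unadjusted p in limma was then 0.484 and 0.284 with the offset, and 0.0535 and 0.0471 without it. Leaving out any 1 array kept the log2 fold changes between 0.35 and 0.48. The 2 control and 2 cortisol arrays on slide 1, row 2 gave 0.49 and 0.58 for probes 1 and 2, those on slide 2, row 1 gave 0.31 and 0.32, and those on slide 2, row 2 gave 0.46 and 0.34. For probe 1 any subset of the arrays had to give a higher cortisol mean, since all 6 cortisol arrays lay above every control. For probe 2, whose groups overlapped, the direction was the same in each of the 3 sets of arrays.

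**Figure D1:**
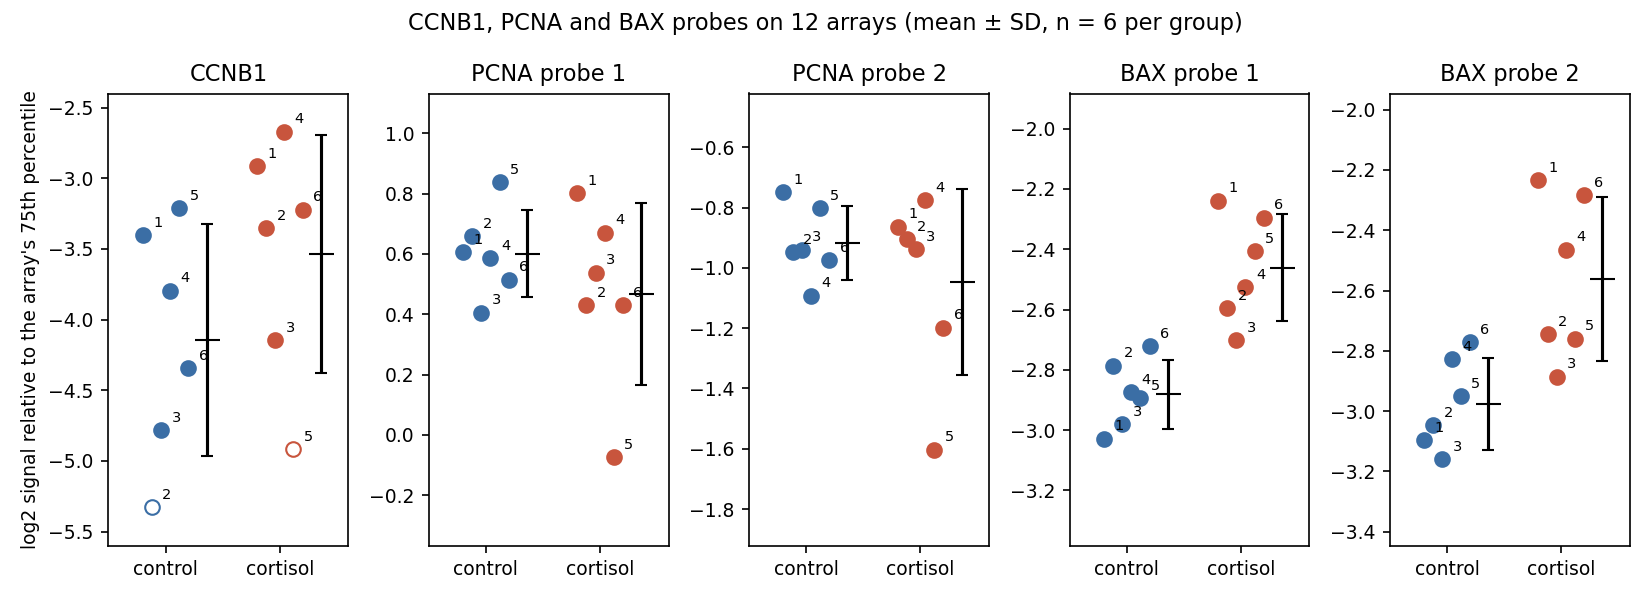
Log2 signal relative to each array's 75th percentile (vertical axis) for the 5 probes on 6 control (blue) and 6 cortisol (red) arrays, numbered by replicate; open circles are not well above background, and black bars are the mean ± SD. The vertical range of the CCNB1 panel is wider than that of the others, the groups separate fully for BAX probe 1 alone, and cortisol array 5 is the lowest cortisol array for CCNB1 and both PCNA probes.

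**Figure D2:**
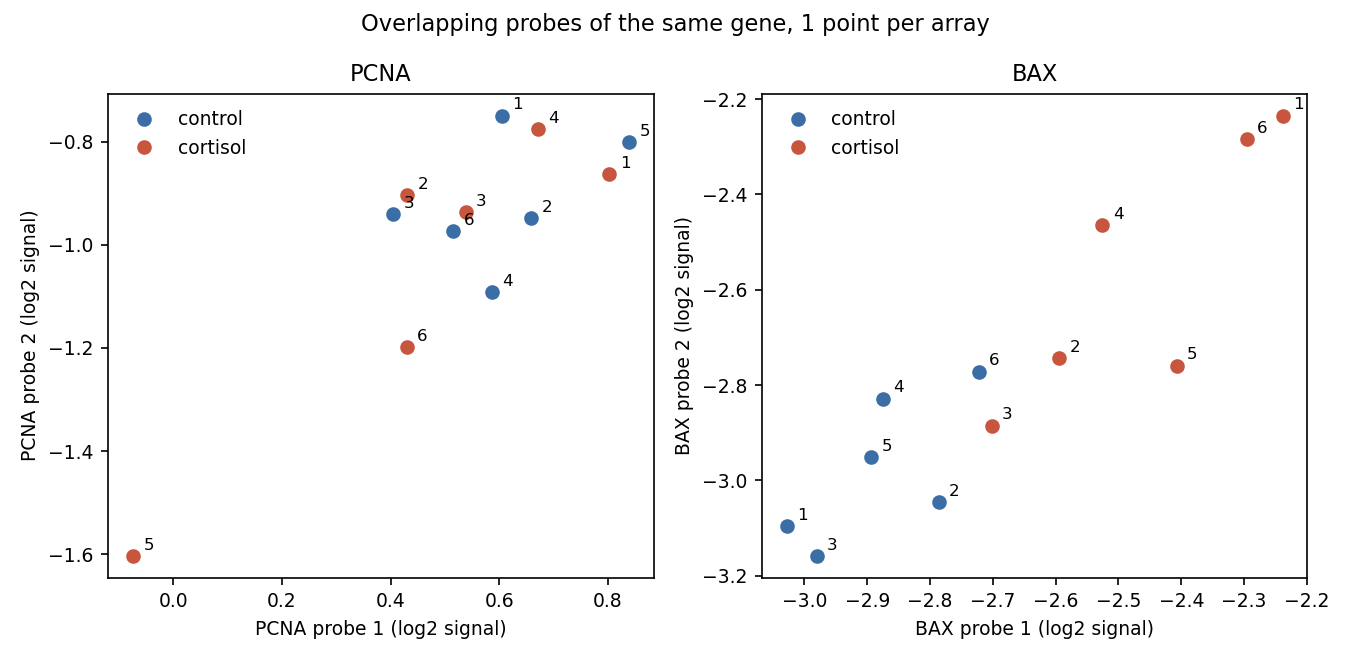
Log2 signal of probe 1 (horizontal) against probe 2 (vertical) of PCNA and of BAX, 1 point per array, numbered by replicate. The BAX probes, which share 59 bases, rank the arrays alike, whereas for PCNA cortisol array 5 lies far below the other arrays on both probes.

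Cells of other kinds contribute RNA to a muscle sample, and in these bulk samples fewer cells of a type and less RNA per cell cannot be told apart. Of the 11 leukocyte markers listed 3 were measured, and all 3 had higher means after cortisol, as BAX did, while 0 passed the adjusted threshold in limma. FCER1G, a signalling chain of immune receptors, had a log2 fold change of 0.59, the integrin chain gene ITGB2 had 0.62 and the monocyte gene CD14 had 0.27. The mean log2 signal of the 3 ran from -3.04 to -2.59 on control arrays and from -2.78 to -1.84 on cortisol arrays. Over the 12 arrays that mean correlated with BAX probe 1 at 0.64 (Pearson; Spearman 0.72), a description only. The same correlation for 4 fibroblast and matrix markers was 0.42 (Spearman 0.27), and for 3 satellite cell and myoblast markers it was -0.53 (Spearman -0.36). On BAX probe 2 the leukocyte, fibroblast and myoblast lists gave 0.63, 0.54 and -0.44 (Pearson). Both groups enter these correlations, so differences between the group means are part of them. The part of any of these lists in the BAX readings was not tested. The T cell markers CD3E and CD4 and the lysozyme gene LYZ did not pass the filter, and CD4 was well above background on 0 of 12 arrays. The liver plasma protein gene AHSG was high on 3 control arrays, at 5.06, 6.69 and 1.88 on control arrays 1, 4 and 6. The liver genes ALB, SERPINA1, TF and TTR were also highest on arrays 1 and 4, and lower on array 6. APOA1 did not follow, at -1.43, -0.76 and -1.73 on control arrays 1, 4 and 6, against -2.66 to -0.86 on cortisol arrays. On these 3 arrays ALB was at 2.57, 2.33 and -1.21, and TTR at 0.69, 1.03 and -3.06. Among the cortisol arrays AHSG was highest on array 6, at 0.70, and array 5, at -0.37, and the other 7 arrays were between -6.36 and -1.62. Without those 3 control arrays, picked by AHSG alone and left out after seeing the data, the log2 fold changes of BAX probes 1 and 2 were 0.43 and 0.49.

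The other measured BCL2 family genes were 3 higher and 1 lower, and like BAX none passed the test over all probes. The median log2 fold change of the 5, BAX included, was 0.42, which is the value of BAX itself, against -0.02 for all tested probes. With normexp and an offset of 50 the median was 0.09, the value of BAD. BCL2, which blocks BAX, had control arrays from 0.29 through a median of 0.66 to 1.26 and cortisol arrays from 0.66 through 1.20 to 1.80. The groups overlapped, with 2 of 6 cortisol arrays above every control. Its log2 fold change was 0.54 (95% interval 0.08 to 1.00), with an unadjusted p of 0.0238 and an adjusted p of 0.693 in limma, and its second probe gave 0.58. MCL1, a short-lived inhibitor of BAX and BAK1, had 0.48 (95% interval -0.21 to 1.18), which was 0.26 without cortisol array 1. BAD, which antagonises the survival members, had 0.05, and BCL2L1, the gene of BCL-XL, had -0.00, with its second probe at 0.06.

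The readings of BAX relative to BCL2 on the same array did not separate the groups. This comparison was chosen after seeing the values. BAX probe 1 minus BCL2 was -3.60 ± 0.35 (SD, n = 6) in controls and -3.72 ± 0.50 after cortisol, a difference of -0.12 with a two-sided exact permutation p of 0.634. For probe 2 the difference was -0.13 with a two-sided exact permutation p of 0.677. Both differences were smaller than the SD between the arrays of a group. Their size and sign moved with the processing and with single arrays. With normexp and an offset of 50 they were -0.41 and -0.36, and without the 3 control arrays high in AHSG 0.06 and 0.12. With single arrays left out, probe 1 ran from -0.28 without cortisol array 6 to -0.00 without cortisol array 3, and probe 2 from -0.30 without cortisol array 6 to 0.02 without cortisol array 5.

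Among death receptors and effectors downstream of BAX, ENDOG had the largest difference in means of the genes measured. Of the 31 genes listed, 3 were measured, and 0 passed the test. ENDOG, a mitochondrial nuclease that can cut DNA once released, had control arrays from 2.97 through 3.39 to 3.59 and cortisol arrays from 1.85 through 2.71 to 3.27. There 4 of the 6 cortisol arrays lay below every control. Its log2 fold change was -0.71 (95% interval -1.19 to -0.23), with an unadjusted p of 0.0066 and an adjusted p of 0.693 in limma. The death receptor genes FAS and TNFRSF1A both had log2 fold changes of -0.01 and changed sign under several alternatives, FAS between -0.34 and 0.55. TNF, the gene of a ligand of TNFRSF1A, was well above background on 0 of 12 arrays and was not tested.

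CCNB1 had a higher mean after cortisol, but its arrays were spread over a wide range in both groups. The lowest, median and highest control arrays were at -5.33, -4.07 and -3.21, and the cortisol arrays at -4.92, -3.29 and -2.67. The groups overlapped over most of their range, with 2 of 6 cortisol arrays above every control. The means were -4.14 ± 0.82 (SD, n = 6) and -3.54 ± 0.84, a log2 fold change of 0.61 (SE 0.42, 95% interval -0.31 to 1.52). Limma gave an unadjusted p of 0.175 and an adjusted p of 0.784, and the two-sided exact permutation p was 0.229. The interval runs from 0.809-fold to 2.87-fold, so neither direction could be told from no change with this number of arrays.

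The CCNB1 readings lie close to background. Processed intensity was 8.95 to 27.5 units on control arrays and 8.41 to 59.2 on cortisol arrays, and control array 2 and cortisol array 5 were not well above background. Those are also the lowest arrays of their groups. Without control array 2 the log2 fold change was 0.37, and without cortisol array 5 it was 0.88. It was 0.33 in the authors' deposited log2 table, 0.30 with normexp and no offset, and 0.07 with normexp and an offset of 50. Within slides and rows it was 1.23 on slide 1, row 2, 0.88 on slide 2, row 1 and -0.29 on slide 2, row 2, so the direction differed between sets of arrays. The residual SD of CCNB1, 0.83, was at percentile 93.8 of all tested probes, whereas that of BAX probe 1, 0.15, was at percentile 1.72.

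The kinase partner of cyclin B1 was too dim to measure, and the other cyclins differed little between the groups. CDK1, the kinase it activates, was well above background on 1 of 12 arrays, and CCNA2, the cyclin of S phase and G2, also on 1, so neither was tested. Of the 19 cyclins and cyclin-dependent kinases listed 6 were measured, 3 with higher and 3 with lower means, and 0 passed the test. The D-type cyclins, which couple growth signals to G1, had log2 fold changes of 0.05 for CCND2 and -0.03 for CCND3. Their kinase CDK4 had -0.10, the G1/S kinase CDK2 had 0.10, and CDK5, a kinase active mainly outside the cell cycle, had -0.27 (95% interval -0.65 to 0.10). AURKA, a mitotic kinase and the only measured gene of the 30 in the mitosis list, had 0.03, and its signal was well above background on 3 of the control arrays and on all 6 cortisol arrays. CCND2, CCND3, CDK2, CDK4 and AURKA each changed sign under at least 1 alternative.

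PCNA differed little between the groups. On probe 1, control arrays ran from 0.41 through a median of 0.60 to 0.84 and cortisol arrays from -0.07 through 0.48 to 0.80. On probe 2, control arrays ran from -1.09 through -0.94 to -0.75 and cortisol arrays from -1.60 through -0.92 to -0.78. The groups overlapped on both probes. At the low end, 1 cortisol array on probe 1 and 2 on probe 2 lay below every control, and cortisol array 5 was the lowest of all 12 arrays each time. The log2 fold changes were -0.14 (SE 0.16, 95% interval -0.47 to 0.20) and -0.13 (SE 0.15, 95% interval -0.46 to 0.20). In limma the adjusted p was 0.883 for probe 1 and 0.887 for probe 2, and the two-sided exact permutation p was 0.383 and 0.418. On the linear scale the interval of probe 1 ran from 0.722-fold to 1.15-fold.

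The slightly lower PCNA mean rests on cortisol array 5. Without it the log2 fold changes were -0.03 for probe 1 and -0.02 for probe 2. By slide and row, probes 1 and 2 gave -0.02 and -0.03 on slide 1, row 2, 0.11 and 0.16 on slide 2, row 1, and -0.50 and -0.51 on slide 2, row 2, the set that holds cortisol array 5. PCNA was well above background on all 12 arrays with both probes, at 241 to 779 units of processed intensity for probe 1 and 83.5 to 246 for probe 2. The controls were tight, with SDs of 0.15 and 0.12 on the log2 scale for n = 6.

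DNA replication and cell cycle inhibitor genes were thinly covered beside PCNA. Of 28 replication genes 2 were measured, both lower in mean, and RPA1, the large subunit of the protein that coats single-stranded DNA, had a log2 fold change of -0.08. TYMS, which makes the thymidine nucleotide for replication, was well above background on 2 of 12 arrays and was not tested. The inhibitor genes went apart without passing the test. CDKN1B, the gene of p27, had 0.38 (95% interval -0.22 to 0.99), or 0.17 without cortisol array 3, and 0.36 on its second probe. CDKN1C, the gene of the imprinted inhibitor p57, had -0.36 (95% interval -0.91 to 0.19), or -0.13 without cortisol array 1. Over all 7 lists, 19 of 166 genes were measured, 9 with higher and 10 with lower means and a median log2 fold change of -0.00. None of the 19 genes in the DNA damage response list, the one list without a measured gene, is on the array by name. Over all tested probes 46.0% had a higher mean, and 0 of the 19 measured genes passed the test.

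Myogenic markers were read beside these genes, since satellite cells and myoblasts are cells of muscle that divide. Of 8 markers 3 were measured, 1 higher and 2 lower in mean, and their mean log2 signal ran from -0.75 to -0.19 on control arrays and from -1.50 to -0.49 on cortisol arrays. The early myogenic regulator MYF5 had -0.60 as its log2 fold change (95% interval -1.03 to -0.18), at an unadjusted p of 0.00902 and an adjusted p of 0.693 in limma. On that probe 5 of 6 cortisol arrays lay below every control, the signal was well above background on 5 arrays of the control group and 3 of the cortisol group, and the second probe gave -0.35. Erythroid markers, 3 of 10 measured, had a mean log2 signal of -2.29 to -0.50 on control and -2.65 to 0.08 on cortisol arrays. The part of either in the CCNB1 readings was not tested.

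Relations between the members over the 12 arrays ranged widely, and they are given as descriptions of arrays that share a scaling. The correlation of BAX probe 1 with BAX probe 2 was 0.91 (Pearson; Spearman 0.92), and it was 0.79 without the 2 arrays farthest from the median. For the PCNA probes it was 0.85 (Spearman 0.68), and 0.47 without the 2 farthest arrays. CCNB1 and PCNA probe 1 gave 0.50 (Spearman 0.55), and PCNA probe 1 and BAX probe 1 gave -0.22 (Spearman -0.12). Between different members the highest value was that of CCNB1 with BAX probe 2, 0.60 (Spearman 0.57), and 0.65 without the 2 farthest arrays, while CCNB1 with BAX probe 1 gave 0.30 (Spearman 0.33).

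The named genes with the most similar signal over the 12 arrays differed between members and, apart from NUS1 for PCNA, between probes of a member. For CCNB1 they were LOC100147796, described on the array as the mitochondrial carrier SLC25A37, with a Pearson correlation of 0.87 and the immune receptor gene CD40 with 0.76. Without the 2 arrays farthest from the CCNB1 median these were 0.82 and 0.73. For PCNA probe 1 they were AGGF1 with 0.86, NUS1 with 0.83 and HSD11B2 with 0.79, and AGGF1 fell to 0.42 without the 2 farthest arrays. For PCNA probe 2 they were NUS1 with 0.83, MRPL32 with 0.82 and PSMB7 with 0.82, which became 0.56, 0.38 and 0.37. For BAX probe 1 they were GRINA with 0.88, the actin gene ACTG1 with 0.79 and the poly(A)-binding protein gene PABPC1 with 0.77, which became 0.86, 0.78 and 0.77. BAX probe 2 gave PYGB with 0.82 and MADCAM1 with 0.78, which became 0.67 and 0.56. Neither was among the genes of probe 1, although the probes share 59 of 60 bases. Only the highest correlations per probe were listed, so absence from a list does not mean a different pattern.

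**Figure D3:**
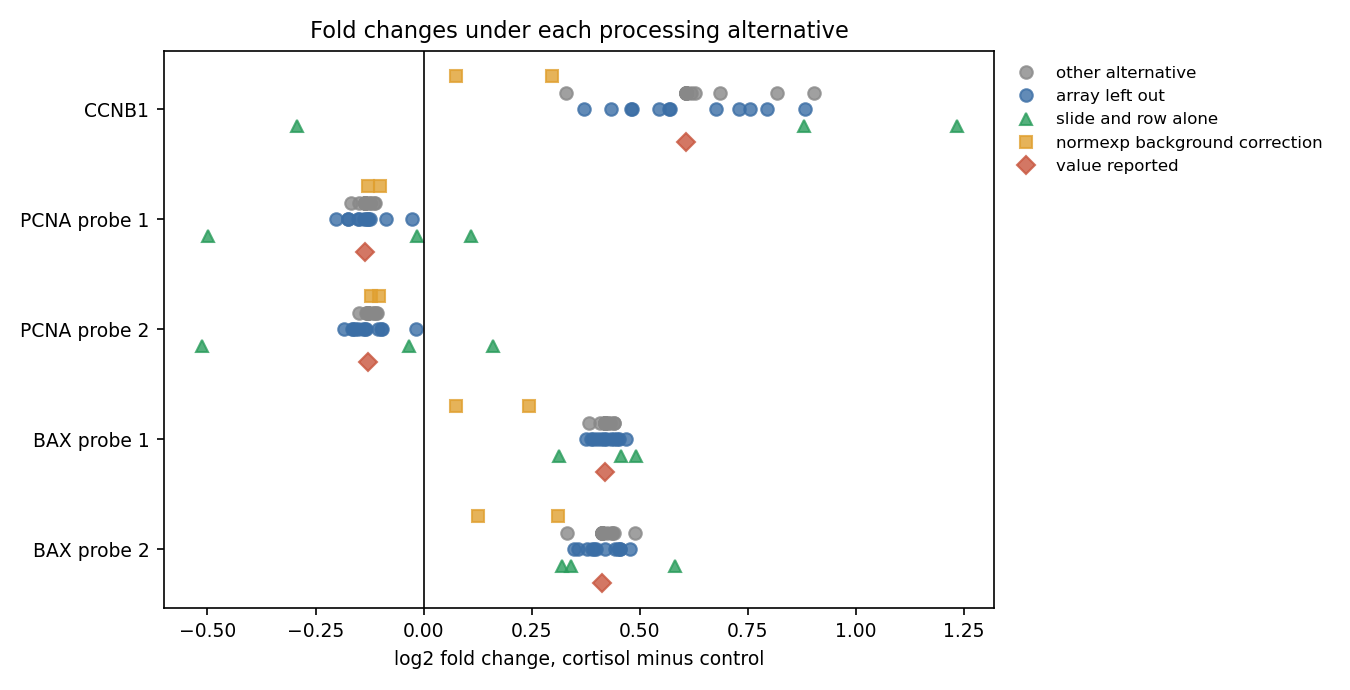
Log2 fold change, cortisol minus control (horizontal), of the 5 probes as reported (diamonds) and under other processing, with single arrays left out (blue circles), within each slide and row (triangles) and with normexp background correction (squares). BAX stays above 0 throughout, from 0.07 to 0.58, while CCNB1 and both PCNA probes fall on both sides of 0 within slides and rows.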

How the data were processed

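Per the labels, Trizol and RNeasy columns gave total RNA, of which 500 ng per sample went into Cy3 labelling for a 1-colour Agilent array. Per the submitters' processing notes and the file headers, the authors read the scans with Agilent Feature Extraction 10.1.1.1. The scanner files hold spot intensity, and per the file headers the processed intensity was background-subtracted and detrended, with no scaling between arrays. Per the file headers, other columns are flags of 0 or 1. The authors' deposited table holds log2 values with nearly equal quartiles (within 0.034), while the sources used here do not give its centring.

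Here log2 processed intensity was averaged over the spots of a probe, outlier-flagged spots were left out, and each array's 75th percentile was subtracted. Groups were compared with limma 3.58.1 in R 4.3.3, two-sided, with Benjamini-Hochberg adjustment over 10734 probes. Exact permutation tests ran over 924 splits. The number of arrays limits precision, with a median standard error of 0.21. Gene names came from RefSeq accessions, Entrez numbers, symbols and synonyms, 1370 probes in all, of which 2 probes, CCNB1 and TYMS, were named from the array's descriptions. For a gene with several probes the brightest stood in the lists. Named were the members, measured list genes and the 3 most similar genes per probe, and a few genes under these rules are not reported here. Members and lists were chosen with earlier results of these data known. Code was checked on simulated data, and Python 3.11.15 was used.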

Additional observations from a re-analysis of the deposited data

Results flagged for a closer look

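Within each group of 6, the highest and lowest arrays were set against Dixon's 95% limit for the gap to their neighbour. Of 42 groups of values examined 1 passed, and chance passes about 1 in 20. CDKN1C was 1.76 on cortisol array 1, below the 2.97 to 3.42 of the other cortisol arrays. Neither CCNB1, PCNA nor BAX passed the limit on any array.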

How the results depend on the processing

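In limma the count of 0 probes past the adjusted threshold was 0 under all 27 alternatives with a test, and the smallest adjusted p among them was 0.235. BAX was above 0 in all 30 alternatives on both probes, at 0.07 to 0.49 for probe 1 and 0.13 to 0.58 for probe 2. Many of these could not have reversed it. The filters, blocks and variance trend leave the log2 fold change as it is. For probe 1, whose groups separate fully, no subset of the arrays can turn it. Within slides and rows CCNB1 was -0.29 on slide 2, row 2, PCNA probes 1 and 2 were 0.11 and 0.16 on slide 2, row 1, and -0.50 and -0.51 on slide 2, row 2, and the cause was not tested. With single arrays left out, CCNB1 lay between 0.37 and 0.88, PCNA probe 1 between -0.20 and -0.03, and PCNA probe 2 between -0.18 and -0.02. The filter to probes detected on all 12 arrays removed CCNB1. Of the list genes, 7 to 13 had a higher mean under the alternatives, against 9 of 19 as reported. The 7 came from the filter to all 12 arrays, which removed AURKA as well as CCNB1, both higher in mean as reported. Whether the replicate numbers pair the arrays was not settled. Same-numbered arrays, which share a slide and row, correlated at -0.11 to 0.25 in their deviations from the group means. For control arrays 3, 4 and 6 the closest cortisol array was the same-numbered one. The replicate block gave BAX probe 1 an adjusted p of 0.633 in limma and 0 probes past the threshold. The dim signals of CCNB1 and BAX limit what can be read from them.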
